A study of Mus musculus with 8 samples.

Results

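A set of 10 transcription factor genes of the naive pluripotent state was followed in mouse embryonic stem cells after deletion of Ino80. They are the Krüppel-like factors Klf2, Klf4 and Klf5, the nuclear receptors Esrrb, Nr5a2 and Nr0b1, and Tfcp2l1, Tbx3, Zfp42 (Rex1) and Prdm14. They were taken by gene symbol, and all 10 were among the 24505 genes listed for each library. RNA-seq libraries came from a line named INO80 CKO, in which Ino80, coding for the catalytic ATPase of a chromatin remodelling complex, can be deleted. There were 8 libraries, 2 with the label knockout and 2 with the label wild type in each of the naive and the primed state. Naive cells grew in N2B27 medium with the MEK inhibitor PD0325901, the GSK3 inhibitor CHIR99021 and LIF at 1000 units/ml. Primed cells grew in N2B27 with FGF2 at 12 ng/ml, Activin A at 20 ng/ml and the tankyrase inhibitor XAV939 at 2 uM. Deletion was induced with 4-OHT at 100 nM for 2 days, followed by 2 more days of culture. Both labels carry the same line name, and the sources used here do not give whether wild-type cells were treated with 4-OHT. Separate cultures are not stated for the 2 libraries of a group. All p-values below therefore reflect the spread of these libraries alone, which may be technical. In the fit of the deposited values this spread was pooled over genes of similar mean level. A standard error there is not the spread of that factor's own libraries.

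Naive pluripotency corresponds to the epiblast before implantation, and primed pluripotency to the epiblast after it. In the naive network, LIF acts through Stat3 on Klf4 and Tfcp2l1, inhibition of GSK3 relieves the repression of Esrrb and Klf2 by Tcf7l1, and inhibition of MEK protects Klf2 protein and holds up Prdm14. The factors sustain one another and are switched off when FGF and Activin signalling carry cells into the primed state, where Pou5f1 and Sox2 remain. In the primed libraries here most of their values lay near or below 1 RPKM (reads scaled to transcript length and library size).

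Naive Ino80 levels were 15.9 and 15.1 RPKM with the knockout label and 17.005 and 14.5 RPKM in wild type, so the groups overlapped. Primed levels were 9.12 and 8.74 RPKM with the knockout label against 15.9 and 20.3 RPKM. Which exons were deleted was not in the sources used here, and reads outside them count as well, so Ino80 checks the labels only weakly. The name labelled knockout is kept throughout. The primed values of all genes also shifted with the label: the median difference of log2(RPKM + 1) over the 13428 genes tested was -0.53. The shift depended on level. Among tested genes with a mean log2 RPKM between -1 and 0 the median ratio of wild type to labelled knockout was 2.43, and between 7 and 8 it was 1.11. Primed Ino80, by geometric means, was 2.01-fold higher in the wild type, against a median of 1.60 for 2463 genes within 0.5 log2 units of its level. Of these genes 28.5% lay lower still, so Ino80 did not stand apart from them. For every factor but Prdm14 the primed result is therefore given both as deposited and against genes of the same level. Genes of the lists are given as deposited. The deposited values of a library summed to between 341480.0 and 507598 RPKM, which is not a read depth, and the depth is unknown.

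Promoters are shown for 3 of the factors, since Zfp42 and Esrrb lay furthest below genes of their own level in primed libraries labelled knockout, while Nr0b1 lay above them. RefSeq windows (build GRCm38.p6) matched 7 of the 10 factors, all but Klf5, Tbx3 and Prdm14, with 9 start sites. The 250 bases upstream of the start are printed 5′ to 3′ on the strand of the gene. Zfp42 lies on the minus strand at chr8:43307010-43307259, the first start of Esrrb on the plus strand at chr12:86360867-86361116, and Nr0b1 on the plus strand at chrX:86191525-86191774. Capitals mark an exact match to one of the motifs searched on both strands.
Zfp42: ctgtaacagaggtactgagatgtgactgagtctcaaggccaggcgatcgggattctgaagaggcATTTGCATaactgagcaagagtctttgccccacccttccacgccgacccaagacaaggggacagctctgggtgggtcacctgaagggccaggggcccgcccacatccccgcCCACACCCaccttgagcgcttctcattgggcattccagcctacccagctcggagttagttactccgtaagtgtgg
Esrrb: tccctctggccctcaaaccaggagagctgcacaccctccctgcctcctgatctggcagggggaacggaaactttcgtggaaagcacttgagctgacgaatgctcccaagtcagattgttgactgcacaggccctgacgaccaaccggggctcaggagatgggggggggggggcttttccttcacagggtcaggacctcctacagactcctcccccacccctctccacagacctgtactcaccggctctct
Nr0b1: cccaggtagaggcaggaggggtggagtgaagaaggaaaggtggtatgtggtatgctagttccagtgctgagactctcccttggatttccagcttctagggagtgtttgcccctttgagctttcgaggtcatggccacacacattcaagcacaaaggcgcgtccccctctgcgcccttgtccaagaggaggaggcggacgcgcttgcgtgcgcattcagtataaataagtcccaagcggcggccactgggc
The motifs were a KLF motif (GGGTGTGG), a nuclear receptor motif (AAGGTCA), a STAT motif (TTCCNGGAA) and the octamer bound by Pou5f1 and its relatives (ATTTGCAT), which was added after the Zfp42 sequence had been read. In the Zfp42 window the octamer began at position -186 and the KLF motif, as its reverse complement, at -75, counted from the start. The other 8 windows held none of the 4 motifs. Among 32851 windows of the same length, 3.20% held the KLF motif, 4.08% the nuclear receptor motif, 0.913% the STAT motif and 1.60% the octamer. A match is a string of letters and not a measured binding site.

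In naive wild-type cells all 10 factors were well expressed, over a range from Zfp42 to Prdm14. Zfp42, a zinc-finger protein used as a marker of naive cells, stood highest at 226 ± 16.1 RPKM (SD, n = 2), and Esrrb next at 181 ± 15.7 RPKM. Tfcp2l1 followed at 129 ± 13.2 RPKM, then Klf4 at 99.4 ± 10.4 and Klf2 at 97.0 ± 16.5 RPKM, whose libraries overlapped. Nr0b1 stood at 63.6 ± 3.48 RPKM, Klf5 at 57.0 ± 4.24 and Tbx3 at 51.2 ± 4.02 RPKM, the last pair again with overlapping libraries. Nr5a2 at 23.2 ± 1.85 RPKM and Prdm14 at 19.0 ± 2.56 RPKM were the lowest. By rank among all listed genes, Zfp42 lay at the 99.1 percentile or above in every naive library, and the lowest factor, Prdm14, at 82.1 or below.

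**Figure D1:**
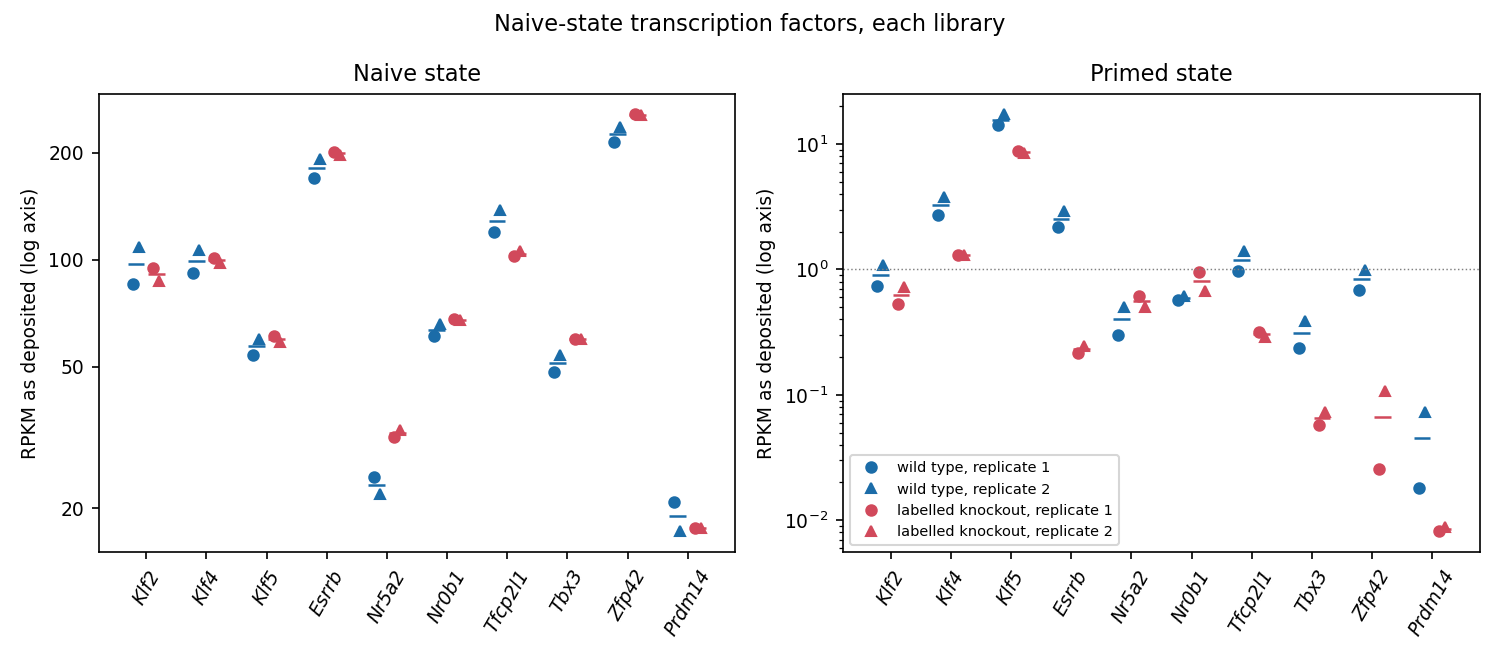
Deposited RPKM of the 10 factors in each of the 8 libraries, on log axes that differ between the naive (left) and the primed state (right). Points are single libraries, short bars are the means of 2, and the dotted line marks 1 RPKM; in primed cells Esrrb and Zfp42 show the widest gap between wild type and labelled knockout, and Nr5a2 and Nr0b1 lie higher in the labelled knockout.

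In primed wild-type cells the order was different, and Klf5 led. Naive and primed values appear, from their ties, to have been scaled apart, so levels of the 2 states are set side by side without a test. Klf5 stood at 15.7 ± 2.23 RPKM, Klf4 at 3.26 ± 0.782 RPKM and Esrrb at 2.53 ± 0.520 RPKM, the last 2 with overlapping libraries. Tfcp2l1 at 1.18 ± 0.301 RPKM, Klf2 at 0.907 ± 0.245 RPKM and Zfp42 at 0.831 ± 0.215 RPKM lay around 1 RPKM, each overlapping the next. Below them came Nr0b1 at 0.593 ± 0.0347 RPKM, Nr5a2 at 0.402 ± 0.142 RPKM and Tbx3 at 0.313 ± 0.110 RPKM, of which Nr5a2 and Tbx3 overlapped. Prdm14 was the lowest at 0.0453 ± 0.0385 RPKM. By mean level, Zfp42 thus went from the first place of the naive order to the sixth, and Klf5 from the seventh to the first. Places of factors with overlapping libraries, the sixth and seventh here among them, are not resolved. In rank, Klf5 lay at the 75.5 and 74.4 percentiles of the primed wild-type libraries, Esrrb at 55.8 and 55.1, and Zfp42 at 47.7 and 46.0.

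**Figure D2:**
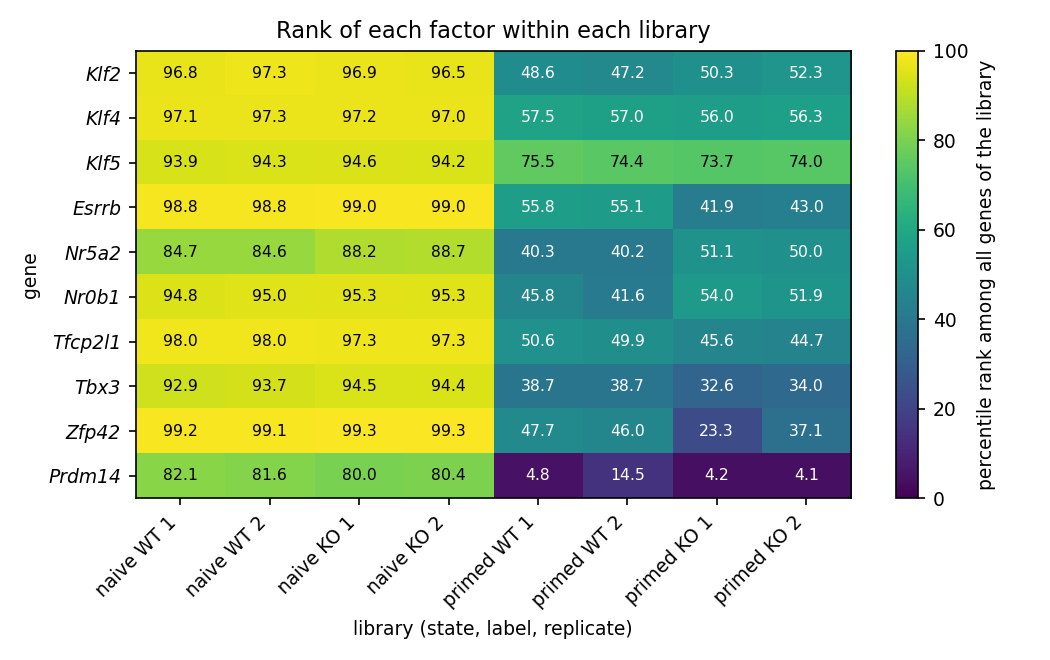
Percentile rank of each factor (rows) among all 24505 genes listed for a library (columns; WT, wild type; KO, labelled knockout), from 0 for the lowest to 100 for the highest. In naive columns all factors but Prdm14 lie at 84.6 or above; in primed cells Klf2, Nr5a2 and Nr0b1 ranked higher in both libraries labelled knockout than in both wild-type libraries, and the other 7 ranked lower.

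The lowest values of a library are not measured zeros. No deposited value is 0, and 4501 genes were tied with another gene in all 4 primed libraries, at values that varied inversely with exon length. A floor was set from the median of 314 such genes with 900 to 1000 bases of exon and scaled to the exon length of each factor in GENCODE vM21. The median ratio of wild type to labelled knockout among the tied genes was 2.88, so the floor itself differed between the groups. Prdm14 stood at 0.95 and 0.98 times the floor with the knockout label, against 1.00 and 2.04 times in wild-type cells, so no ratio is given for it. Zfp42 stood at 2.20 and 8.75 times the floor with the knockout label, against 27.6 and 20.3 times in wild-type cells. The lowest of all other primed values of the factors was 12.3 times the floor. Esrrb, Tfcp2l1 and Tbx3 each overlap 1 other gene in the RefSeq annotation, and since the sources used here do not say whether counting used strand, reads of such partners cannot be told apart.

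Between primed libraries labelled knockout and primed wild type, 5 of the 10 factors were lower and 0 higher by limma at an adjusted p of 0.05 over all 13428 genes tested. Esrrb, Klf4, Klf5, Zfp42 and Tfcp2l1 fell, by 0.74 to 1.51 on the scale of log2(RPKM + 1). Of all genes tested, 59.3% were called lower and 4.16% higher, so the share of the factors is near the background. The median difference of the factors was -0.52, against -0.53 over all genes. All 10 passed the filter on low values through the 4 naive libraries alone, so the filter did not depend on the primed contrast. Without overlap between the groups, 8 factors lay lower and 2 higher in the labelled knockout, against 76.4% and 6.77% of all genes tested. In these bulk libraries, fewer cells that keep a transcript and less of it per cell cannot be told apart.

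**Figure D3:**
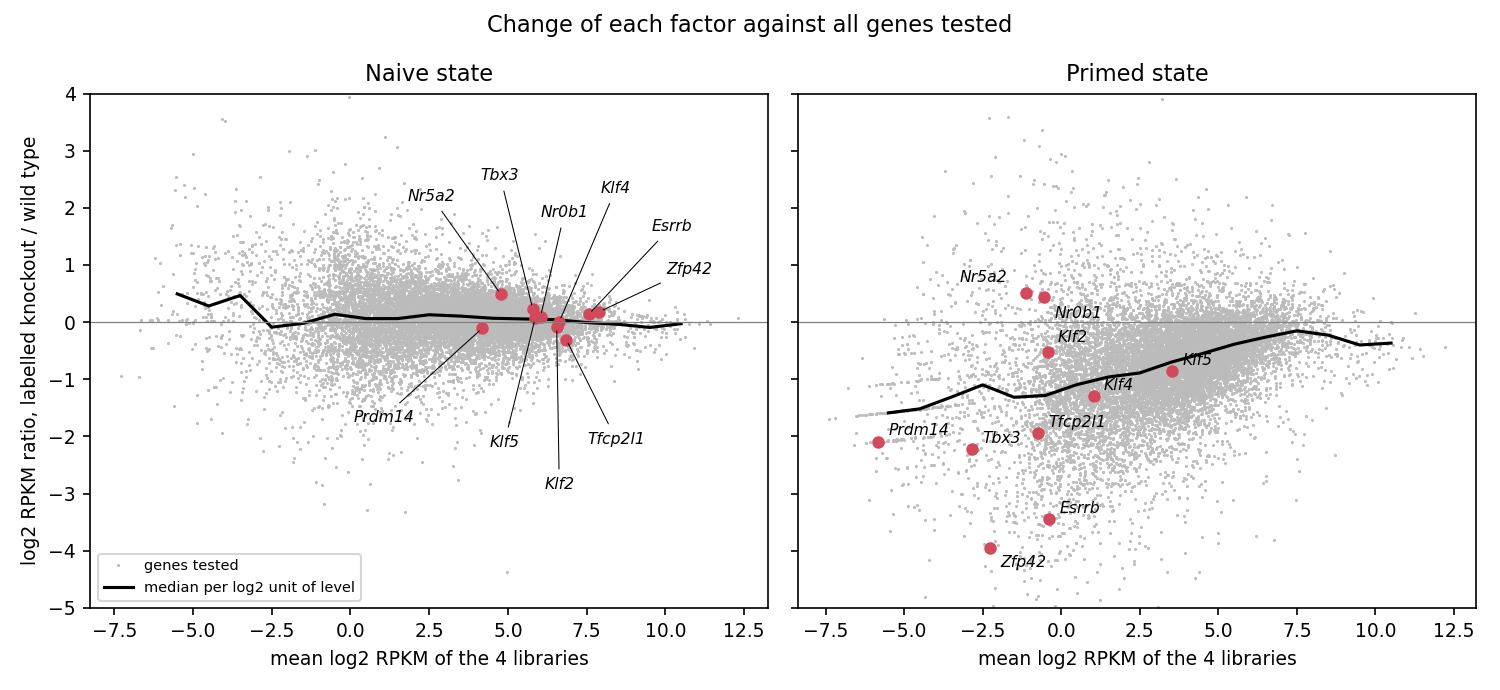
Log2 ratio of RPKM, labelled knockout over wild type, with no pseudocount (vertical axis), against the mean log2 RPKM of the 4 libraries (horizontal axis), in the naive (left) and primed state (right); grey points are the 13428 genes tested, red points the 10 factors, the black line the median per log2 unit, and genes beyond the axis are not drawn. In the primed state Esrrb and Zfp42 lie far below the line of genes of their level, Klf4 and Klf5 close to it, and Nr5a2, Nr0b1 and Klf2 above it.

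The Krüppel-like factors bind GC-rich promoter elements and overlap in function in naive cells, where self-renewal is lost after their combined depletion. Klf4 stood at 1.30 and 1.31 RPKM in primed labelled knockout cells, against 2.70 and 3.81 RPKM in wild-type cells. Both labelled knockout libraries were lower and the groups did not overlap. Its level was 2.498-fold higher in the wild type, between 2.06 and 2.94 for single pairs of libraries, a log2(RPKM + 1) difference of -0.87 ± 0.17 (SE; limma, adjusted p = 1.5e-06). Of all listed genes outside the set, 1181 lay within 0.5 log2 units of its mean level. This comparison used the ratio of geometric means, as did all those with genes of the same level. It was 2.46 for Klf4 and had a median of 2.07 for these genes, so Klf4 lay 1.19-fold below them. Klf5 stood at 8.72 and 8.47 RPKM against 14.1 and 17.2 RPKM, again without overlap. That was 1.82-fold higher in the wild type (1.61 to 2.04), a difference of -0.79 ± 0.14 (limma, adjusted p = 1.0e-07), against 1.62 for genes of its level. For both Klf4 and Klf5, 39.0% of genes of the same level lay lower, so neither stood apart from such genes. Klf2 stood at 0.531 and 0.720 RPKM against 0.734 and 1.08 RPKM, with the closest libraries 1.02-fold apart. The difference of -0.23 ± 0.20 did not pass (limma, adjusted p = 0.320), but passed at -0.36 once primed wild-type replicate 1 was left out (adjusted p = 0.0282). Genes of its level were 2.41-fold higher in the wild type, so Klf2, at 1.44-fold by geometric means, lay 1.67-fold above them.

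The nuclear receptor genes split. Esrrb, an orphan receptor that binds many enhancers of the naive network and can stand in for Nanog, showed the largest primed difference of the 10 on the log2(RPKM + 1) scale. It stood at 0.217 and 0.244 RPKM in labelled knockout cells, compared with 2.17 and 2.90 RPKM in the wild type, far apart relative to the spread within either group. The wild type was 11.0-fold higher, between 8.86 and 13.4 for single pairs, a difference of -1.51 ± 0.16 (limma, adjusted p = 1.9e-19). Of 1376 genes at its level, whose median ratio was 2.41, only 2.83% lay lower, and Esrrb, at 10.9-fold by geometric means, lay 4.53-fold below their median. Its rank went from 55.8 and 55.1 in the wild type to 41.9 and 43.0 in the labelled knockout.

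Nr5a2 (Lrh-1), a receptor that binds Pou5f1 regulatory elements, stood at 0.610 and 0.504 RPKM in primed labelled knockout cells, compared with 0.301 and 0.502 RPKM in the wild type. The groups did not overlap, but 0.504 and 0.502 RPKM are nearly the same value. Its level was 1.39-fold higher in the labelled knockout (1.01 to 2.02), and the difference of 0.15 ± 0.27 did not pass (limma, adjusted p = 0.629). Nr0b1 (Dax1), a receptor without a DNA-binding domain of the usual kind that acts with Esrrb and Pou5f1, stood at 0.951 and 0.678 RPKM against 0.568 and 0.617 RPKM. That was 1.37-fold higher in the labelled knockout (1.10 to 1.67), a difference of 0.18 ± 0.22 that did not pass (limma, adjusted p = 0.472). Against genes of their own level, Nr5a2 lay 3.50-fold and Nr0b1 3.27-fold above the median. Nr5a2 lay above 94.7% and Nr0b1 above 94.1% of such genes. Nr5a2 ranked at 51.1 and 50.01 with the knockout label, against 40.3 and 40.2 in wild-type cells, and Nr0b1 at 54.0 and 51.9 against 45.8 and 41.6. Relative to other genes in the same library, the receptors Nr5a2 and Nr0b1 thus stood higher in the labelled knockout and Esrrb lower.

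Tfcp2l1, a target of LIF and Stat3, stood at 0.318 and 0.289 RPKM in primed labelled knockout cells, compared with 0.969 and 1.39 RPKM in the wild type. The groups lay well apart. The wild type was 3.89-fold higher (3.05 to 4.82), a difference of -0.74 ± 0.19 (limma, adjusted p = 3.5e-04), and genes of its level lay 2.43-fold higher. Tfcp2l1, at 3.83-fold by geometric means, was 1.58-fold below them, with 13.98% of 1638 such genes lower still. Tbx3, a T-box factor that LIF raises through PI3K signalling, stood at 0.0573 and 0.0734 RPKM against 0.235 and 0.391 RPKM. Here too the groups did not overlap. The wild type was 4.79-fold higher (3.21 to 6.81), but on the log2(RPKM + 1) scale the difference was only -0.30 ± 0.25 (limma, adjusted p = 0.284). This scale understates changes of genes below 1 RPKM. By geometric means the wild type was 4.68-fold higher, against a median of 2.35 for 1215 genes of its level, so Tbx3 lay 1.99-fold below them, with 16.4% of them lower still. Without a pseudocount the Tbx3 difference was -2.23 ± 0.43 and passed (limma, adjusted p = 1.5e-06), while median centring, which shifts all genes of a library alike, turned it to 0.40 (adjusted p = 0.0160).

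Zfp42, whose promoter window with the octamer and KLF motif is printed above, stood at 0.0256 and 0.108 RPKM in labelled knockout cells, compared with 0.679 and 0.984 RPKM in the wild type. The lowest wild-type library was 6.30-fold above the highest labelled knockout library. The ratio of the means was 12.5, with single pairs up to 38.4, the lower of the labelled knockout libraries being the one at 2.20 times the floor. The difference was -0.78 ± 0.17 (limma, adjusted p = 1.5e-05), or -3.96 ± 0.28 without a pseudocount (limma, adjusted p = 1.5e-42). Both standard errors came from the trend over all genes and leave out how far apart its labelled knockout libraries lay. Quantile normalization without a pseudocount, added after the data were seen, gave that spread some weight. There the difference was -2.70 ± 0.49 (limma, adjusted p = 0.00152). Genes at its level were 2.27-fold higher in the wild type, so Zfp42, at 15.6-fold by geometric means, lay 6.86-fold below them, and 1.87% of 1068 such genes lay lower. Its rank went from 47.7 and 46.0 to 23.3 and 37.1. Prdm14, a PR-domain protein that represses Fgf receptor genes and de novo methyltransferases, stood at 0.00813 and 0.00889 RPKM against 0.0181 and 0.0725 RPKM. All but the second wild-type value, at 2.04 times the floor, lay at the floor, and the difference of -0.05 ± 0.28 did not pass (limma, adjusted p = 0.886).

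Without a pseudocount, 7 of the 10 factors were called lower and 0 higher, beside 58.5% and 4.07% of all genes tested. The factors added were Tbx3 and Prdm14, the latter through values at the floor. The median of the factors was then -1.62, against -0.69 over all genes tested, but on this scale the change depends on level. Among tested genes with a mean log2 RPKM between -2 and 1, the median per log2 unit ran from -1.32 to -1.09. Klf4 and Klf5 lay above this range of levels, and Zfp42, Tbx3 and Prdm14 below it. At the levels of those factors the median ran from -1.59 to -0.70. The list of 12 other naive or early pluripotent genes gave a median of -1.65 on the same scale, with 10 called lower. Klf2 at -0.53 ± 0.26 (limma, adjusted p = 0.0647), Nr5a2 at 0.51 ± 0.39 (adjusted p = 0.243) and Nr0b1 at 0.44 ± 0.29 (adjusted p = 0.171) did not pass.

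When the 4 primed libraries were brought to one distribution by quantile normalization, the factors divided into a lower and a higher group. Esrrb, Zfp42, Tfcp2l1, Klf4 and Tbx3 were lower and Nr0b1, Nr5a2 and Klf2 higher, 5 and 3 of 10, beside 35.1% and 39.0% of all genes tested. The median of all genes was then 0.02. Esrrb still differed by -1.01 ± 0.04 (limma, adjusted p = 2.1e-07) and Zfp42 by -0.50 ± 0.06 (adjusted p = 6.8e-05). Tfcp2l1 differed by -0.28 ± 0.04 (adjusted p = 2.0e-04), while Klf4 at -0.15 ± 0.04 (adjusted p = 0.00959) and Tbx3 at -0.14 ± 0.05 (adjusted p = 0.0334) were close to 0 but passed. Tbx3 lay below 1 RPKM, where log2(RPKM + 1) understates changes. The same normalization without a pseudocount, added after the data were seen, gave -1.05 ± 0.10 for Tbx3 (limma, adjusted p = 4.5e-05). Nr0b1 was higher by 0.65 ± 0.08 (limma, adjusted p = 1.7e-04), Nr5a2 by 0.54 ± 0.05 (adjusted p = 2.3e-05) and Klf2 by 0.27 ± 0.08 (adjusted p = 0.0190). Klf5 at -0.10 ± 0.05 did not pass (limma, adjusted p = 0.0905). Loess normalization without a pseudocount, added after the data were seen, gave -2.28 for Esrrb and -2.65 for Zfp42, and 1.73 for Nr5a2 and 1.62 for Nr0b1, all past the threshold. Esrrb was the one factor called lower in all 21 settings, the deposited scaling included, with differences from -3.44 to -0.82. Zfp42, Tfcp2l1 and Klf4 were called lower in 20 of them, all but median centring, and Nr5a2 and Nr0b1 were called higher in the 5 that rescaled the libraries. Quantile and loess normalization assume that libraries share a distribution of levels or have no trend of the ratio with level. The labels describe ERCC spike-in controls, but 0 of the 24505 rows were spike-ins, so total RNA per cell was not analysed here.

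**Figure D4:**
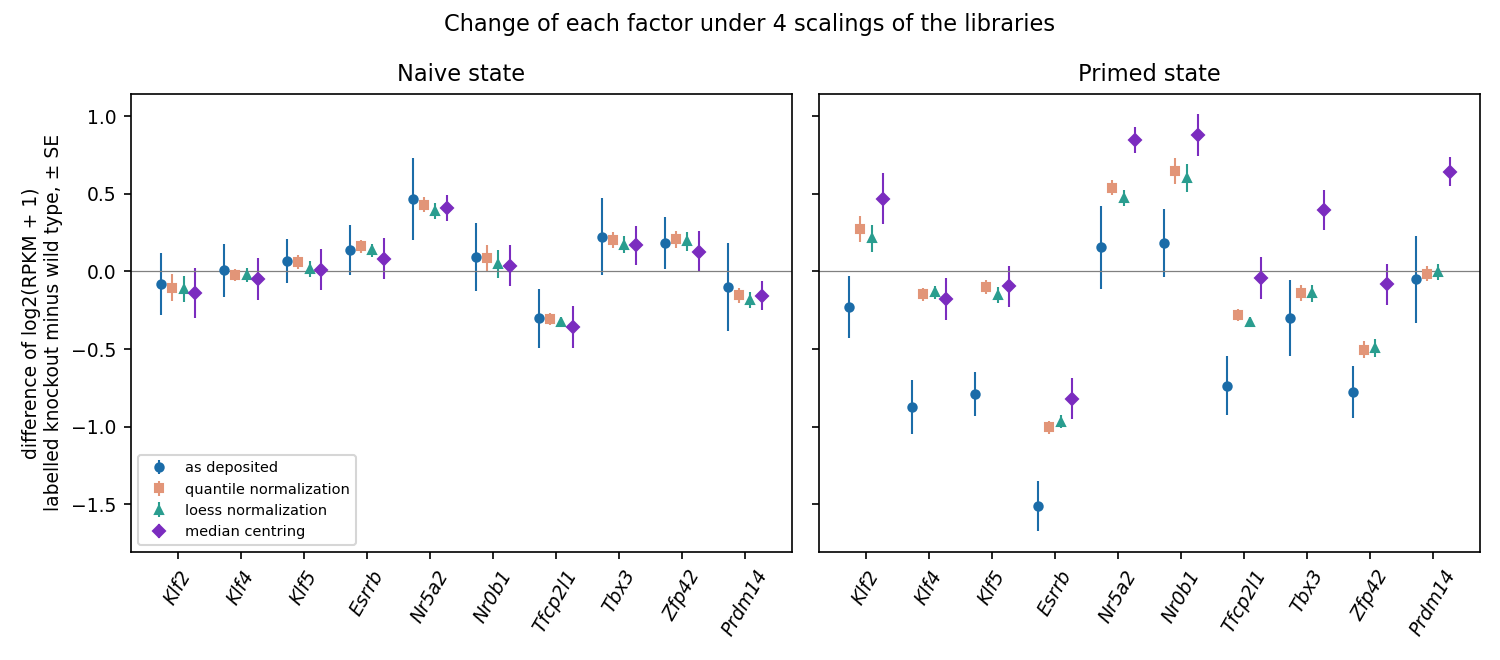
Difference of log2(RPKM + 1), labelled knockout minus wild type, for each factor in the naive (left) and primed state (right), under 4 scalings; points are estimates and bars the standard error from limma. In the primed state Esrrb stays below 0 under each scaling shown, and Nr5a2 and Nr0b1, at 0.15 and 0.18 as deposited, lie at 0.47 or above under the other 3.

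Markers of other cells moved in the same comparison. Of 6 markers of primitive streak and mesoderm, 4 were tested and 2 were called higher in the primed labelled knockout, beside 4.16% of all genes tested. Their summed level was 44.3 and 40.6 RPKM in the labelled knockout against 3.86 and 5.54 RPKM in the wild type. Most of it came from T (brachyury), at 37.4 and 33.7 RPKM against 1.94 and 2.89 RPKM, and Eomes, at 6.64 and 6.55 RPKM against 1.07 and 1.30 RPKM. Naive libraries also held Eomes, at 6.56 and 6.45 RPKM with the knockout label and 7.39 and 4.71 RPKM in wild type. Mixl1, Mesp1, Gsc and Evx1 lay below 1 RPKM in all 4 primed libraries. These 4 went the other way, lower in both libraries labelled knockout without overlap, as did 76.4% of all genes tested. The 5 neural markers summed to 142 and 136 RPKM against 87.3 and 102 RPKM, mostly from Nes, while the neural factors Sox1 and Pax6 were lower in the labelled knockout. The 7 endoderm markers summed to between 2.63 and 6.04 RPKM and the 5 trophoblast markers to between 1.08 and 2.15 RPKM. Foxa2, an endoderm marker too low to be tested, stood at 0.697 and 0.477 RPKM against 0.114 and 0.0717 RPKM. The other endoderm markers had lower means in the labelled knockout. The 6 fibroblast markers summed to 33.1 and 29.99 RPKM against 42.7 and 58.0 RPKM. Of these, 4 were called lower and 1 higher, beside 59.3% and 4.16% of all genes tested. The higher one was S100a4, at 4.02 and 2.73 RPKM against 0.526 and 1.19 RPKM. No marker was at 0, since no value is. The part of such cells in the levels of the factors was not tested. As a check of the state labels, 12 primed markers were summed, T among them. They reached between 381 and 478 RPKM in primed libraries and between 88.3 and 143 RPKM in naive ones.

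In the naive state, 0 of the 10 factors passed between labelled knockout and wild type with limma, and 0 had an unadjusted p under 0.05, beside 6.08% of all genes called higher and 5.85% called lower. The median difference was 0.08, against 0.05 over all genes tested. Nr5a2 stood at 31.8 and 33.1 RPKM in labelled knockout cells, compared with 24.5 and 21.9 RPKM in the wild type, 1.40-fold higher without overlap (1.30 to 1.51). Tfcp2l1 stood at 102 and 106 RPKM against 120 and 138 RPKM, also without overlap but in the other direction. These are the largest naive differences, 0.47 ± 0.27 for Nr5a2 (limma, adjusted p = 0.288) and -0.30 ± 0.19 for Tfcp2l1 (adjusted p = 0.364). Tbx3 stood at 59.96 and 59.9 RPKM against 48.4 and 54.0 RPKM, and Zfp42 at 257 and 255 RPKM against 214 and 237 RPKM. Esrrb stood at 201 and 197 RPKM against 170 and 193 RPKM, and Nr0b1 at 68.0 and 67.7 RPKM against 61.1 and 66.0 RPKM. In these 4 both labelled knockout libraries lay above both of the wild type. In all, 5 factors lay higher and 1 lower without overlap, against 31.2% and 21.0% of all genes tested. Klf2 at 94.7 and 87.4 RPKM against 85.4 and 109 RPKM, Klf4 at 101 and 98.1 RPKM against 92.0 and 107 RPKM, Klf5 at 60.9 and 58.6 RPKM against 54.0 and 60.02 RPKM and Prdm14 at 17.6 and 17.6 RPKM against 20.8 and 17.2 RPKM overlapped. When each state was fitted alone, 2 factors, Nr5a2 and Tbx3, passed as higher and 1, Tfcp2l1, as lower (limma, adjusted p = 3.1e-06, 0.00434 and 2.7e-05), beside 10.7% and 8.15% of all genes. After quantile normalization 4 passed as higher (Nr5a2, Zfp42, Tbx3 and Esrrb, by 0.43, 0.21, 0.20 and 0.16) and 2 as lower (Tfcp2l1 and Prdm14, by -0.30 and -0.15), beside 32.1% and 27.3% (largest limma adjusted p = 0.0229).

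The effect of the label differed between the states for 4 factors, all with a more negative primed change, beside 47.4% of all genes called lower and 2.16% called higher in the same test. The share of the factors called lower was thus not above that of all genes. The difference of the effects, primed minus naive, was -1.65 for Esrrb (limma, adjusted p = 2.3e-11), -0.96 for Zfp42 (adjusted p = 3.3e-04), -0.88 for Klf4 (adjusted p = 0.00127) and -0.86 for Klf5 (adjusted p = 1.1e-04). With a pseudocount of 0.1 or with none, Tfcp2l1 and Tbx3 passed as well, so that 6 factors were lower, and the same 2 were added when primed wild-type replicate 1 was left out. Without a pseudocount their differences were -1.63 and -2.45 (limma, adjusted p = 7.4e-05 and 4.0e-04). The Klf4 call was lost without naive labelled knockout replicate 1 (adjusted p = 0.0634). The median over all genes was -0.59, and Esrrb lay furthest from it. After quantile normalization Esrrb (-1.17) and Zfp42 (-0.71) passed in the same direction, joined by Tbx3 (-0.34), while Klf4 and Klf5 did not, and Nr0b1 (0.56) and Klf2 (0.38) passed as higher, 3 lower and 2 higher of 10 beside 30.8% and 33.6% of all genes. Nr5a2, whose naive and primed differences were both positive, gave -0.31 as deposited and 0.11 after quantile normalization, and passed in neither. In RPKM, Nr5a2 was 1.40-fold higher in the labelled knockout in naive cells and 1.39-fold higher in primed cells.

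Genes around the network were read as lists against the same background of 59.3% called lower and 4.16% called higher in primed cells. After quantile normalization the background was 35.1% called lower and 39.0% called higher, and all list counts below are to be set beside these shares. Of 4 core pluripotency factors, 2 were higher and 1 lower by the same limma test, and 3 and 1 after quantile normalization. Pou5f1 stood at 667 and 649 RPKM in the labelled knockout against 560 and 604 RPKM, and Sox2 at 60.7 and 50.3 RPKM against 38.9 and 47.7 RPKM, while Nanog, whose product raises Esrrb, stood at 38.6 and 35.5 RPKM against 111 and 122 RPKM. Of 12 other genes associated with naive or early pluripotent cells, 6 fell and 0 rose, with a median of -0.48. Fgf4, a target of Pou5f1 and Sox2 that drives exit from the naive state, stood at 0.443 ± 0.0294 RPKM against 6.12 ± 1.01 RPKM. Tet2, a methylcytosine dioxygenase, stood at 0.447 ± 0.00224 RPKM against 4.13 ± 1.02 RPKM, Fbxo15 at 0.508 ± 0.0982 RPKM against 4.13 ± 1.38 RPKM and Dppa5a at 0.152 ± 0.00108 RPKM against 1.41 ± 0.497 RPKM. After quantile normalization these 4 were called lower too, 4 of the 12 in all, and 2 were called higher.

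Of 9 genes of the LIF and Wnt inputs, 2 rose and 3 fell (median -0.29). After quantile normalization 7 were higher and 1 lower, beside 39.0% and 35.1% of all genes tested. Sp5, a Wnt target, stood at 0.700 ± 0.0280 RPKM in the labelled knockout against 0.0618 ± 0.0264 RPKM. The other gene that rose, Ctnnb1 (beta-catenin), named after its values were seen, stood at 332 ± 4.89 RPKM against 248 ± 11.4 RPKM. Axin2 of the same list, also named afterwards, was lower at 1.32 ± 0.0270 RPKM against 2.16 ± 0.564 RPKM. It did not pass as deposited (limma, adjusted p = 0.125) and was called higher, by 0.25, after quantile normalization. Il6st, the LIF co-receptor gp130, fell to 4.50 ± 0.0916 RPKM from 7.73 ± 1.92 RPKM, but was called higher, by 0.12, after quantile normalization. Tcf7l1, the repressor of Esrrb and Klf2 named above, fell to 28.2 ± 3.07 RPKM from 57.1 ± 8.28 RPKM. Socs3, which LIF and Stat3 raise, stood at 3.23 ± 0.210 RPKM against 6.81 ± 1.76 RPKM. After quantile normalization its difference was -0.08 and did not pass (limma, adjusted p = 0.186). Of 7 factors that drive exit from the naive state, 5 fell and 0 rose (median -0.34); Rbpj, the Notch cofactor, stood at 7.89 ± 0.0220 RPKM against 16.5 ± 2.55 RPKM. After quantile normalization 4 of these were higher and 3 lower, with Tcf7l1 at -0.53 and Rbpj at -0.28. Of 12 primed markers, 11 were tested, and 4 rose and 5 fell (median -0.26), or 7 and 3 after quantile normalization. Fgf5, the standard marker of primed cells, stood at 18.2 ± 1.45 RPKM against 5.15 ± 1.19 RPKM. In the other direction, Fgf8, a growth factor, fell to 1.69 ± 0.447 RPKM from 7.54 ± 2.43 RPKM and Sox3 to 4.80 ± 0.910 RPKM from 15.2 ± 4.99 RPKM, and both were also called lower after quantile normalization. Otx2 at 13.98 ± 0.183 RPKM against 17.1 ± 3.33 RPKM and Dnmt3b at 172 ± 5.69 RPKM against 182 ± 11.0 RPKM did not pass.

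Paralogs of the factors, of which 16 of 21 were tested, gave 12 lower and 0 higher, with a median of -0.62. Among them Klf9 stood at 5.92 ± 0.398 RPKM against 18.2 ± 4.23 RPKM, Klf13 at 8.003 ± 0.00175 RPKM against 23.8 ± 3.98 RPKM and Klf7 at 4.6045 ± 0.0973 RPKM against 13.5 ± 2.43 RPKM. After quantile normalization 8 paralogs were lower and 6 higher, beside 35.1% and 39.0% of all genes tested.

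The genes whose log2(RPKM + 1) profile over the 8 libraries lay closest to the mean profile of the factors, by Euclidean distance between centred profiles, were Pecam1 (distance 0.365), H2-M5 (0.385), Dppa2 (0.484), Dppa4 (0.502) and Fkbp6 (0.508). Closest to Esrrb was Fbxo15 at a distance of 0.346. Its level was 4.13 RPKM in primed wild type and 0.508 RPKM in the labelled knockout, beside 2.53 and 0.231 RPKM for Esrrb. The next were Mylpf (0.915), Aqp3 (1.26), Triml2 (1.30) and Tex19.1 (1.38). Like the factors, all of these genes had a high naive and a low primed level, which follows from how they were chosen.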

How the data were processed

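RNA was measured by RNA-seq in 8 libraries, 2 per state and label. The deposited values are RPKM per gene, made by the authors. The submitters' processing notes name cutadapt 1.9, STAR 2.5.2b, featureCounts 1.5.1, the affy package and the build mm9, without their roles. The sources used here do not give the strand or annotation used for counting. Further scaling by the authors was read from the values: 0 values are at 0, and ties in any library recur in the other 3 of its state but not across states. Naive and primed libraries were therefore taken as scaled apart, and depth is unknown.

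Values were taken as log2(RPKM + 1). A gene was tested if 2 or more libraries reached 1 RPKM, which left 13428 of 24505. The fit had 4 group means over 8 libraries, in limma 3.58.1 (R 4.3.3) with an intensity trend. The spread of a gene's own libraries got no weight in this fit (infinite prior degrees of freedom). Each standard error came from the trend of spread with mean level over the 8 libraries. Benjamini-Hochberg adjustment ran over every gene tested, and the threshold was 0.05. The procedure was tested on simulated data. An exact permutation test of 2 libraries against 2 cannot give a p below 0.333 and was not used. Ratios, ranks and figures were computed in Python 3.11.15 (matplotlib 3.10.9). The 20 alternatives changed the pseudocount, filter, scaling, fit or replicate term, or left out 1 library. The factors, the lists and the motifs were chosen with earlier results of these data known. All factors were named, with Ino80, and up to 4 genes a list, those with the largest change in primed cells among the called. Pou5f1, Sox2, Nanog, Fgf5, Otx2 and Dnmt3b and the 5 nearest profiles were named as well. Ctnnb1, Axin2 and the named markers of other cells were named after their values were seen. Promoter sequences are from RefSeq on GRCm38.p6, and the reference's coordinates were not mixed with the authors' build.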

Additional observations from a re-analysis of the deposited data

Results flagged for a closer look

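The change from wild type to labelled knockout differed between the primed and the naive state for 4 factors, by limma's test of the difference of log2(RPKM + 1) changes (primed minus naive). It was -1.65 for Esrrb, -0.96 for Zfp42, -0.88 for Klf4 and -0.86 for Klf5, where the median over all genes tested was -0.59 and 47.4% of genes were called in that direction. The share of the factors was not above that of all genes. Esrrb was called in all 20 settings in which this difference was fitted, and Zfp42 in 19 of them, all but median centring. Klf4 passed in 16 and Klf5 in 15. On log2(RPKM + 1), neither passed with median centring, quantile or loess normalization.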

How the results depend on the processing

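Counts below are of factors called by limma out of 10. Quantile normalization also moved the share of all genes called higher. It went from 4.16% to 39.0% in the primed comparison, from 6.08% to 32.1% in the naive one and from 2.16% to 33.6% for the difference. For the other rescalings and a pseudocount of 0.1 that share is not given here, so a changed count is not read as a result about the factors. In the primed comparison 0 were higher as deposited, 5 with median centring, 3 with quantile and 2 with loess normalization, and 3 with either of the last 2 without a pseudocount (added after the data were seen); 5 were lower as deposited and 1 with median centring. In the naive comparison 0 were called; higher calls were 1 with median centring, 4 with quantile or loess, 2 with each state alone and 1 with either method without a pseudocount, and lower calls 2 with quantile or loess, 1 with each state alone and 1 with either method without a pseudocount. For the difference of the states, higher calls went from 0 to 4 with median centring, 2 with quantile or loess and 3 with either without a pseudocount, and lower calls from 4 to 1 with median centring and to 6 with a pseudocount of 0.1 or none. Rescaling lowered the median residual SD from 0.179 to 0.0477 with quantile normalization. Otherwise the cause was not tested. Signs turned as follows, in log2 units. In the primed comparison Klf2 became 0.47, 0.27 and 0.21 with median centring, quantile and loess, and 0.64 with quantile or loess without a pseudocount, and with median centring Tbx3 became 0.40 and Prdm14 0.64. In the naive comparison Klf4 went from 0.01 to -0.050, -0.022 and -0.022 with these 3 scalings, and to -0.022 and -0.017 with quantile and loess without a pseudocount. For the difference of the states, Klf2 became 0.61, 0.38 and 0.33, and 0.75 and 0.75 without a pseudocount; Nr5a2 became 0.44, 0.11 and 0.084, 1.203 and 1.31 without a pseudocount, and 0.027 with no pseudocount and no rescaling; Tfcp2l1 became 0.32 and 0.022 with median centring and quantile; Tbx3 became 0.23 with median centring; and Prdm14 became -0.29 with a pseudocount of 0.1, -1.98 with none, and -0.47 and -0.36 with quantile and loess on top. Leaving out 1 library in turn, with the lone library of its group assumed to vary like the others, left 0 factors higher in any comparison, 5 to 6 lower in the primed comparison, 0 lower in the naive one and 3 to 6 lower for the difference. Naive changes then ranged from -0.25 to 0.090 for Klf2, -0.10 to 0.11 for Klf4, -0.0073 to 0.14 for Klf5 and -0.23 to 0.031 for Prdm14, and differences of the states from -0.32 to 0.028 for Klf2, -0.019 to 0.20 for Nr0b1 and -0.082 to 0.18 for Prdm14. The filters of 0 and 5 RPKM and the fit without an intensity trend left the calls of all factors as they were. With the replicate number as a block, 5 factors were lower in the primed comparison, 0 called in the naive one and 4 lower for the difference, the same 30 calls as without it; same-numbered libraries of the labelled knockout and wild type deviated together in the naive state (r = 0.31 across genes) but not in the primed state (r = -0.036), and since the labels tie the numbers to no shared culture, batch or day, and each state has only 2 pairs, the numbers were not taken as pairs in either state. With 2 libraries a group and unknown depth, levels near the floor, Prdm14 above all, are not resolved.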
